A study of Mus musculus with 20 samples.

Results

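The E2F transcription factors E2f1 to E2f8 and the retinoblastoma proteins Rb1 and Rbl1 were followed in mouse eosinophils with and without the phosphatase gene Dusp5, before and after IL-33. The members were taken by gene symbol, as E2f1 to E2f8, Rb1 and Rbl1, which gave 10 genes of the 17771 genes measured. Each was read by 1 probe set, and all 10 lay above the array's 40th percentile on all 20 arrays and were tested. The chromosomes of the 10 genes were 2 for E2f1 and Rbl1, 4 for E2f2, 13 for E2f3, 8 for E2f4, 3 for E2f5, 12 for E2f6, 10 for E2f7, 7 for E2f8 and 14 for Rb1.

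Eosinophils were grown from bone marrow of Dusp5+/+ mice (wild type) and Dusp5-/- mice (knockout), with 5 numbered replicates of each genotype and treatment. On culture day 12 the cells were kept in medium alone (untreated) or given IL-33, an alarmin cytokine that activates eosinophils, at 25 ng/ml for 4 h. That gave 4 groups of 5 one-colour Affymetrix arrays. These are cultures grown from marrow, not eosinophils taken from tissue or blood.

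E2F factors bind DNA, mostly with a DP partner, and control genes needed to copy DNA and divide. E2f1, E2f2 and E2f3 are known mainly as activators, E2f4, E2f5 and E2f6 mainly as repressors, and E2f7 and E2f8 as atypical repressors that need no DP partner. Rb1 and Rbl1 (p107) are pocket proteins that bind E2F factors and hold them inactive until cyclin-dependent kinases phosphorylate them. Several genes of the family, such as E2f1, E2f7, E2f8 and Rbl1, are themselves known E2F targets.

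Short stretches next to the start sites of 4 of the genes are shown because they carry an E2F-type motif. The RefSeq promoter table (GRCm38.p6, 250 bases before to 50 after a start) held a window for 7 of the 10 genes, namely E2f1, E2f2, E2f3, E2f6, E2f7, E2f8 and Rbl1. Letters TTTCCCGC, TTTGGCGC, TTTCGCGC and TTTGCCGC were searched on both strands. A match stood in a window of 4 of these 7 genes, against 2.6% of the 27025 genes in the table. Capitals mark the match, and each sequence runs 5′ to 3′ on the gene's strand.
E2f2, chr4:136172294-136172323, plus strand: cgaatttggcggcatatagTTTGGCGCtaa
E2f3, chr13:29986064-29986143, minus strand: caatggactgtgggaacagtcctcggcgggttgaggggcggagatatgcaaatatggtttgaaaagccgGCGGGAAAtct
E2f7, chr10:110745205-110745284, plus strand: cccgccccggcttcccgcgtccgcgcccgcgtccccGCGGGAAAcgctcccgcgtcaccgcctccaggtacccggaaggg
Rbl1, chr2:157204535-157204614, minus strand: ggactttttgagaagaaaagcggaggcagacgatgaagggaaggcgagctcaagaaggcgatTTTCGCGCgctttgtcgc
The match began 39 bases after the start in E2f2, and 11, 198 and 18 bases before it in E2f3, E2f7 and Rbl1. In E2f3 and E2f7 it lay on the opposite strand. No match says only that these letters are not in that window, and the windows of E2f1 and E2f8 lay wholly inside the annotated gene.

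Dusp5 followed the genotype labels. Without IL-33 its log2 value was 8.15 ± 0.26 (SD, n = 5) in the wild type against 4.40 ± 0.31 in the knockout, and with IL-33 it was 9.77 ± 0.35 against 4.95 ± 0.18. All 5 eosinophil marker genes on the list were measured, and their mean log2 value lay between 10.4 and 11.2 on every array. With IL-33, 2 of the 5 fell in both genotypes, where 26.7% of all genes fell in wild-type and 33.2% in knockout cells. Siglecf fell by 0.71 and 0.61 and Il5ra by 0.84 and 1.08 in wild-type and knockout cells. The medians of the arrays ran from 4.25 to 4.32. Wild-type replicate 2 was lowest and knockout replicate 1 highest of its group for E2f7, E2f8 and Rbl1 in both treatments, so the genotype comparisons are given with and without them. In bulk RNA, fewer cells of a type and less RNA per cell cannot be told apart.

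IL-33 lowered E2f2, E2f8 and Rbl1 in both genotypes and raised E2f4 in both. It raised E2f5 in wild-type cells and E2f3 in knockout cells. The wild-type call of E2f4 was lost in 12 alternative fits and kept in 12. In wild-type cells 5 of the 10 genes passed the test (limma, Benjamini-Hochberg adjusted p under 0.05), 3 lower and 2 higher, while 42.7% of all 11766 genes tested did, 26.7% lower and 16.1% higher. In knockout cells 5 of 10 passed, again 3 lower and 2 higher, against 52.2% of all genes, 33.2% lower and 18.9% higher. The share of the family called was thus close to that of all genes. The median log2 difference over the 10 genes was -0.17 in the wild type and -0.12 in the knockout, beside -0.05 and -0.08 over all genes tested.

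**Figure D1:**
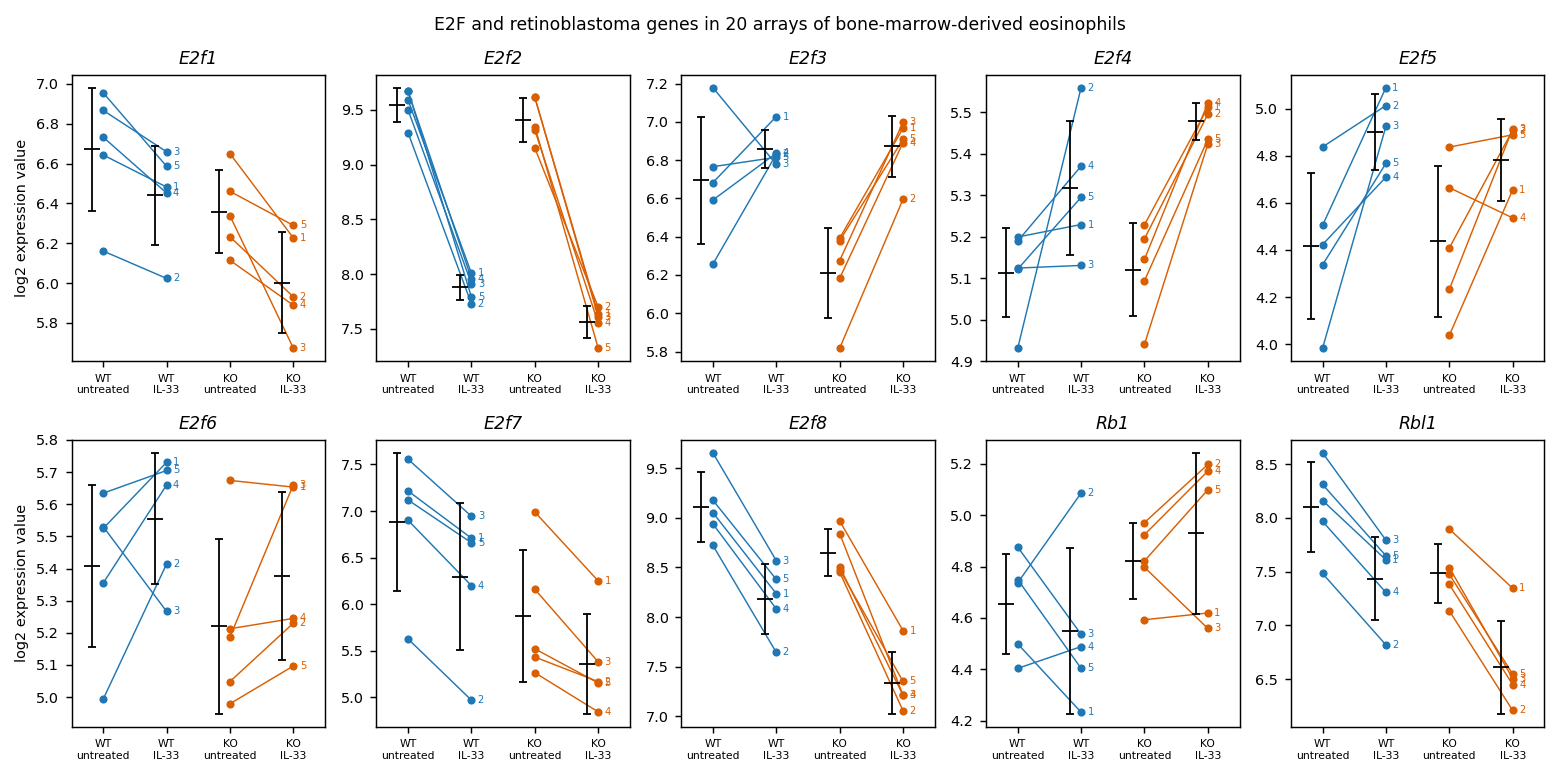
Log2 expression value (vertical axis) of each of the 10 genes in the 4 groups, with lines joining same-numbered arrays, numbers for the replicate, and black bars for the mean ± SD of 5 arrays; WT is wild type and KO is knockout. All lines of E2f2, E2f7, E2f8, E2f1 and Rbl1 go down with IL-33, and vertical scales differ between panels.

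Among the activators, E2f2 had the widest IL-33 difference of the family. Its log2 values in untreated wild-type cells were 9.59, 9.29, 9.50, 9.67 and 9.68 in replicates 1 to 5, and after IL-33 they were 8.01, 7.73, 7.91, 7.96 and 7.79. In knockout cells they were 9.61, 9.15, 9.61, 9.32 and 9.35 without IL-33 and 7.63, 7.70, 7.61, 7.55 and 7.32 with it. Every untreated array was above every IL-33 array of its genotype, a separation found for 28.3% of all genes in the wild type and 38.5% in the knockout. The log2 difference was -1.67 ± 0.10 (SE) in wild-type cells (limma adjusted p = 5.24e-11) and -1.85 ± 0.10 in knockout cells (limma adjusted p = 7.83e-12), that is 3.17-fold and 3.59-fold lower.

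E2f1, the activator best known for driving entry into DNA replication, showed smaller differences. Untreated wild-type values were 6.64, 6.16, 6.87, 6.73 and 6.96, and IL-33 values were 6.48, 6.02, 6.66, 6.45 and 6.59. Untreated knockout values were 6.65, 6.23, 6.34, 6.11 and 6.46, and IL-33 values were 6.23, 5.93, 5.67, 5.89 and 6.29. The groups overlapped, yet each IL-33 array was below its same-numbered untreated array in 5 of 5 pairs of both genotypes. The difference was -0.23 ± 0.15 in wild-type cells (limma adjusted p = 0.233) and -0.36 ± 0.15 in knockout cells (limma adjusted p = 0.0552). With the replicate number as a fixed block, both were called (limma adjusted p = 0.0113 and 5.23e-04). With a random block at the estimated correlation, the adjusted p was 0.0536 in wild-type cells, not called, and 0.00370 in knockout cells.

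E2f3, the third activator, rose in knockout cells. It was 6.68, 6.26, 7.18, 6.59 and 6.77 in untreated and 7.03, 6.83, 6.78, 6.84 and 6.81 in IL-33-treated wild-type cells. In knockout cells the values were 6.39, 5.82, 6.27, 6.18 and 6.38 without IL-33 and 6.97, 6.60, 6.997, 6.89 and 6.91 with it, without overlap. The difference was 0.66 ± 0.13 in knockout cells (limma adjusted p = 3.45e-04) and 0.16 ± 0.13 in wild-type cells (limma adjusted p = 0.347). The 2 responses were not shown to differ: the interaction was 0.50 ± 0.19, with an unadjusted p of 0.0158 and a limma adjusted p of 0.863.

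Of the repressors, E2f4, which binds the pocket proteins in resting cells, rose by small amounts. Its values were 5.20, 4.93, 5.12, 5.19 and 5.12 in untreated and 5.23, 5.56, 5.13, 5.37 and 5.29 in IL-33-treated wild-type cells. In knockout cells they were 5.23, 5.19, 4.94, 5.15 and 5.09, and then 5.51, 5.49, 5.42, 5.52 and 5.43. The wild-type groups overlapped and the knockout groups did not. The difference was 0.20 ± 0.08 in wild-type (limma adjusted p = 0.0399) and 0.36 ± 0.08 in knockout cells (limma adjusted p = 6.74e-04). The wild-type call was lost without any 1 of 6 arrays (untreated replicates 2, 3 and 5, IL-33 replicates 2, 4 and 5), with limma adjusted p from 0.0570 to 0.132, and was 0.299 without both arrays of replicate 2. It was lost too with no filter on dim genes (limma adjusted p = 0.0596) and without both arrays of replicate 4 or 5 (0.0772 and 0.0833). A fit of only the groups compared gave a limma adjusted p of 0.0955, and a trended robust prior gave 0.0508. The wild-type call was lost in 12 alternative fits and kept in 12.

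E2f5, a repressor related to E2f4, was read by a probe set whose name (_s_at) marks one that may also match similar transcripts. Its values were 4.50, 4.84, 3.98, 4.42 and 4.34 in untreated and 5.09, 5.01, 4.93, 4.71 and 4.77 in IL-33-treated wild-type cells. In knockout cells they ran from 4.04 to 4.84 without and from 4.54 to 4.92 with IL-33. Some untreated values, such as 3.98 and 4.04, lay under the arrays' medians (4.25 to 4.32), so the signal was low. E2f5 rose by 0.48 ± 0.15 in wild-type cells (limma adjusted p = 0.0128, and 0.0709 without both arrays of replicate 3). In knockout cells the difference was 0.34 ± 0.15 (limma adjusted p = 0.0589, and 0.0296 and 0.0146 with the fixed and random replicate block). E2f6, a repressor linked to Polycomb complexes, differed by 0.15 ± 0.15 in wild-type (limma adjusted p = 0.442) and 0.16 ± 0.15 in knockout cells (limma adjusted p = 0.385), with values from 4.98 to 5.73 over all 20 arrays.

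The atypical factors E2f7 and E2f8 restrain E2F target genes late in the cell cycle. E2f8 was 9.05, 8.72, 9.66, 8.94 and 9.18 in untreated wild-type cells and 8.24, 7.64, 8.57, 8.08 and 8.38 after IL-33. In knockout cells it was 8.97, 8.45, 8.84, 8.51 and 8.48 and then 7.86, 7.05, 7.21, 7.21 and 7.35. Neither pair of groups overlapped. E2f8 fell by 0.93 ± 0.18 on the log2 scale in wild-type (limma adjusted p = 4.05e-04) and by 1.31 ± 0.18 in knockout cells (limma adjusted p = 6.19e-06).

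E2f7 was far more uneven between cultures. Untreated wild-type values were 7.22, 5.63, 7.56, 6.90 and 7.12, and IL-33 values were 6.71, 4.97, 6.94, 6.20 and 6.66. Untreated knockout values were 6.99, 5.43, 6.16, 5.27 and 5.52, and IL-33 values were 6.25, 5.17, 5.38, 4.85 and 5.16. Wild-type replicate 2 was lowest and knockout replicate 1 highest of its genotype in both treatments. The difference between IL-33 and untreated cells was -0.59 ± 0.40 in wild-type (limma adjusted p = 0.251) and -0.51 ± 0.40 in knockout cells (limma adjusted p = 0.290). Within same-numbered pairs it lay between -0.70 and -0.46 in wild-type and between -0.78 and -0.26 in knockout cells, and with the fixed replicate block both were called (limma adjusted p = 2.92e-05 and 6.51e-05). With the random block the adjusted p was 0.0452 in wild-type cells and 0.0694 in knockout cells, the second not called.

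Of the pocket proteins, Rbl1 fell and Rb1 did not pass the test. Rbl1 was 8.16, 7.48, 8.60, 7.97 and 8.31 in untreated wild-type cells and 7.61, 6.82, 7.79, 7.31 and 7.65 after IL-33. Untreated knockout values were 7.90, 7.13, 7.54, 7.38 and 7.47, and IL-33 values were 7.34, 6.21, 6.51, 6.45 and 6.55. The groups of a genotype overlapped, through the low wild-type replicate 2 and the high knockout replicate 1. The difference was -0.67 ± 0.22 in wild-type (limma adjusted p = 0.0193) and -0.87 ± 0.22 in knockout cells (limma adjusted p = 0.00253), and the wild-type call was lost without the untreated array of replicate 3 or the IL-33 array of replicate 2 (limma adjusted p = 0.0616 and 0.0643) or without both of replicate 4 (0.0506). Rb1 ranged from 4.23 to 5.20 over the 20 arrays, whose medians were 4.25 to 4.32, so its signal was low. Rb1 differed by -0.10 ± 0.15 in wild-type (limma adjusted p = 0.610) and 0.11 ± 0.15 in knockout cells (limma adjusted p = 0.568).

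Within same-numbered pairs, E2f1, E2f2, E2f7, E2f8 and Rbl1 were lower after IL-33 in 5 of 5 pairs of each genotype, as were 36% of all genes in wild-type and 41.3% in knockout cells. E2f4 was higher in 5 of 5 pairs of each genotype, as were 19.5% and 22.6% of all genes. With the fixed replicate block, 5 genes were lower and 2 higher in wild-type cells, against 37% and 20.8% of all genes. In knockout cells 5 were lower and 3 higher, against 42% and 23.5%. The random block called 6 members in wild-type cells, without E2f1, and 7 in knockout cells, without E2f7, against 56.9% and 65.4% of all genes.

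**Figure D2:**
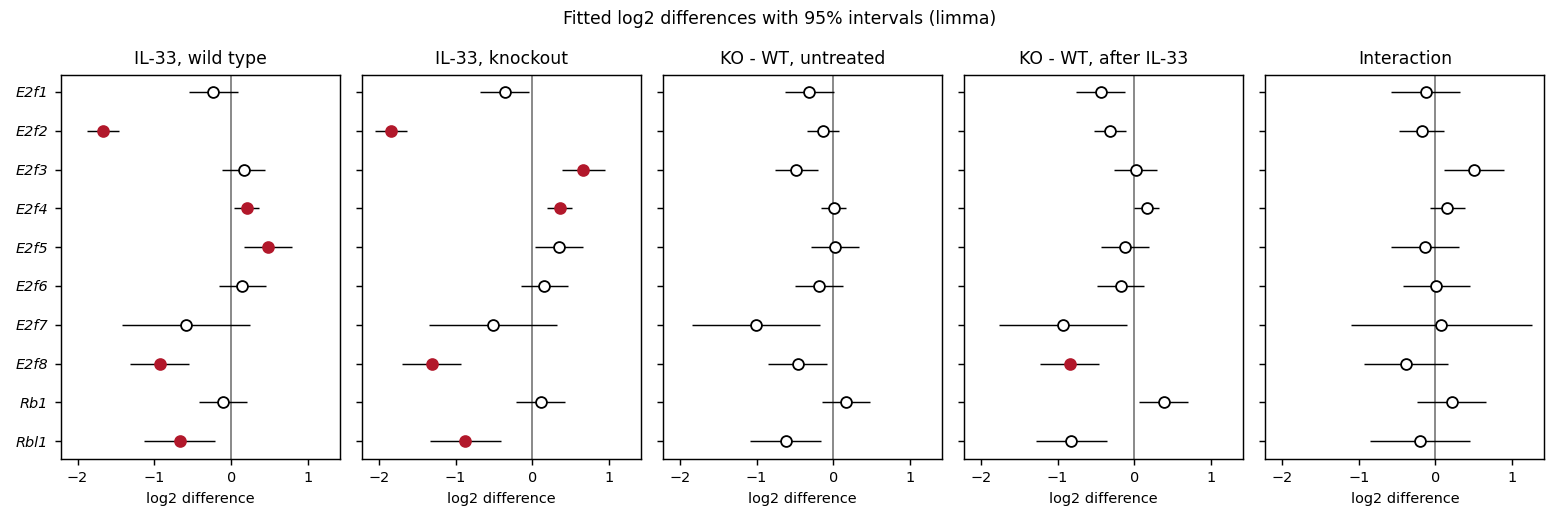
Fitted log2 difference (points, horizontal axis) with its 95% interval for each gene (rows) in the 5 comparisons; filled red points passed an adjusted p under 0.05 and open points did not. Filled points stand in both IL-33 panels, at E2f8 alone in the genotype comparison after IL-33, and nowhere in the untreated and interaction panels.

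The comparison of genotypes asks what the loss of Dusp5 changed, and it shares its arrays with the IL-33 comparisons above. In untreated cells none of the 10 genes was called by limma, and 3 of all genes were (0.0255%). At an unadjusted p under 0.05 stood 4 of the 10, namely E2f3, E2f7, E2f8 and Rbl1, against 12.9% of all genes. Their knockout minus wild-type differences were -0.49 ± 0.13 for E2f3, -1.01 ± 0.40 for E2f7, -0.46 ± 0.18 for E2f8 and -0.62 ± 0.22 for Rbl1, each with a limma adjusted p of 0.383. The groups of 5 arrays overlapped for all 10 members, and did not for 1.1% of all genes.

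After IL-33 only E2f8 was called among the 10, while 2.21% of all genes were. Its knockout minus wild-type difference was -0.84 ± 0.18 (limma adjusted p = 0.0266), and the groups overlapped through knockout replicate 1 at 7.86 and wild-type replicate 2 at 7.64. The fit without a block takes same-numbered arrays as independent, while those of E2f8 correlated at 0.837. Its spread thus rests on fewer independent cultures than the 16 residual degrees of freedom count, and the adjusted p may be too small. Rbl1 differed by -0.82 ± 0.22 (limma adjusted p = 0.0547). It was called with the replicate number as a random block (limma adjusted p = 0.0287), a fit that called 4.37% of all genes. That fit sets 1 correlation, 0.464, for every gene, while the same-numbered arrays of Rbl1 correlated at 0.936. The gained call therefore adds no weight. E2f2 differed by -0.32 ± 0.10 (limma adjusted p = 0.0797), with every knockout array below every wild-type array, as in 3.32% of all genes in either direction. At an unadjusted p under 0.05 stood 6 of the 10, with E2f1, E2f7 and Rb1 beside those named, against 24.1% of all genes. Rb1 was the only one of the 6 that was higher in knockout cells, at 0.38 ± 0.15 (limma adjusted p = 0.138).

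Which genes passed the threshold between genotypes depended on the cultures included. The E2f8 call after IL-33 was lost without any 1 of 8 of the 10 arrays compared, all but wild-type replicate 2 and knockout replicate 1, with limma adjusted p from 0.0594 to 0.0812 and log2 differences from -0.87 to -0.75. In a fit of those 2 groups alone the adjusted p was 0.0804. Without wild-type replicate 2, 7 of the 10 genes were called after IL-33 (17.8% of all genes), namely E2f1, E2f2, E2f4, E2f7, E2f8, Rb1 and Rbl1, and 4 in untreated cells (5.53% of all genes), namely E2f1, E2f3, E2f7 and Rbl1. E2f7 then differed by -1.32 in untreated cells (limma adjusted p = 0.0408) and by -1.27 after IL-33 (limma adjusted p = 0.0108). Without knockout replicate 1, E2f8 and Rbl1 were called after IL-33 (9.92% of all genes), with Rbl1 at -1.01 (limma adjusted p = 0.0111), and none in untreated cells (0.034% of all genes). These 2 cultures were chosen after the data were seen, as the lowest and the highest for E2f7, E2f8 and Rbl1. Leaving either out widens the genotype difference of those genes by construction, so the gained calls are no independent support.

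The interaction asks whether IL-33 changed a gene by a different amount in the 2 genotypes. No gene was called by limma (0%), with or without the fixed replicate block, and 4.83% had an unadjusted p under 0.05. A random block called 26 genes (0.221%), none of them a member. E2f3, above, was the 1 member of the 10 with such a p. The interaction of E2f8 was -0.38 with a 95% interval from -0.93 to 0.16, and that of E2f7 was 0.07 with an interval from -1.11 to 1.25.

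Variation between cultures of 1 group was wide for part of the family. The pooled within-group SD of E2f7 was 0.700 on the log2 scale, at the 99.7th percentile of all genes tested, where the median gene had 0.166. Rbl1 had 0.383 (95.5th percentile) and E2f8 0.316 (91.7th percentile), while E2f2 had 0.159 (44.9th) and E2f4 0.115 (18th). The untreated and IL-33 arrays of 1 number deviated alike: over 10 pairs the deviations from the group means correlated with r = 0.970 for E2f7, 0.936 for Rbl1, 0.837 for E2f8 and 0.822 for E2f1. For the median gene r was 0.476, and for E2f4 it was -0.313.

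**Figure D3:**
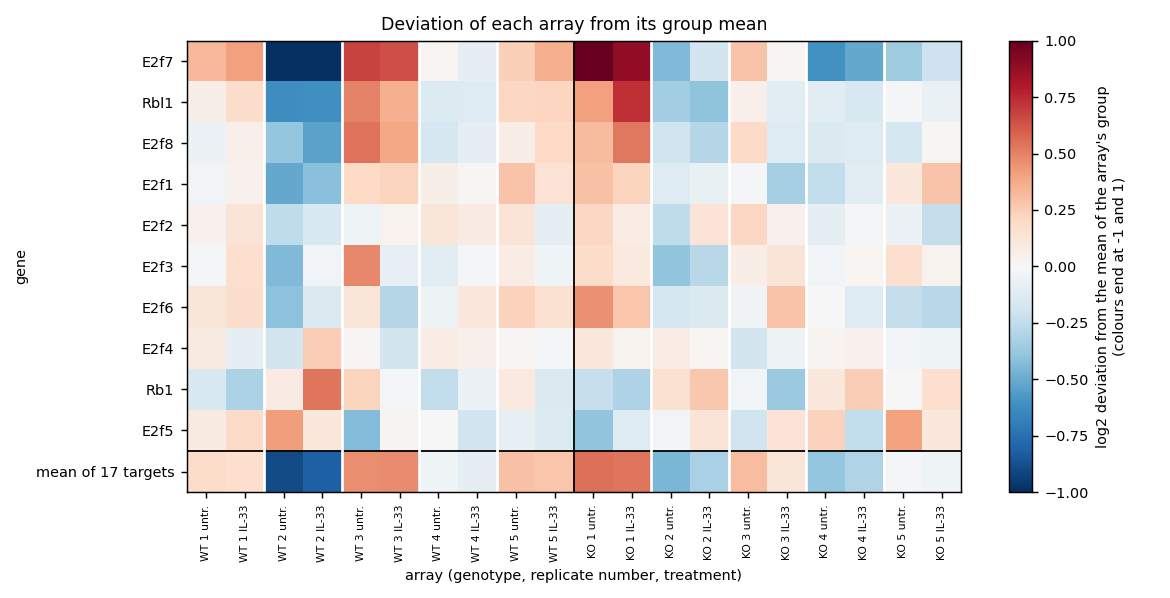
Log2 deviation of each of the 20 arrays (columns, in same-numbered pairs) from its group's mean for the 10 genes and for the mean of 17 E2F target genes (bottom row); red is above and blue below, and colours end at -1 and 1. E2f7, Rbl1 and E2f8 are lowest of the wild type in both arrays of wild-type replicate 2 and highest of the knockout in both arrays of knockout replicate 1.

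E2f1, E2f7, E2f8 and Rbl1 deviated together. Over the 20 arrays, whose deviations from 4 group means share pairs of one number, the 6 correlations among them ran from 0.757 to 0.952, with E2f8 and Rbl1 highest. The 4 were grouped with these data known, and other members also went with them. E2f3 correlated with these 4 at 0.498 to 0.679, E2f6 at 0.356 to 0.674 and E2f2 at 0.383 to 0.645. Rb1 correlated with these 4 at -0.619 to -0.285, E2f5 at -0.635 to -0.506 and E2f4 at -0.273 to -0.0516. The correlations are descriptions, and 2 cultures lie far out in them.

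The genes whose deviations were most like those of a member were named by their r over the 20 arrays. For E2f7 they were Nasp (0.972), a histone chaperone, Psip1 (0.972) and Rrm2 (0.971), a subunit of ribonucleotide reductase. For Rbl1 they were Ndc80 (0.980), a kinetochore protein, Stil (0.980) and Cdkn2c (0.979), a CDK inhibitor, and for E2f8 they were Ankrd28 (0.969), Lsm8 (0.963) and Ckap2 (0.960). E2f1 was most like Pkmyt1 (0.929), a kinase that restrains Cdk1, Rangap1 (0.918) and Dcp2 (0.918). E2f2 was led by Smpd1 (0.861), E2f3 by Rbm12 (0.903), E2f4 by Strn (0.717), E2f5 by Rnf138 (0.845), E2f6 by Nfkbia (0.914) and Rb1 by Ldhc (0.935).

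E2F target genes are known to be expressed as cells prepare to copy their DNA. Of 20 such genes listed, 17 were tested. IL-33 lowered 12 of 17 in wild-type and 13 of 17 in knockout cells and raised none, where 26.7% and 33.2% of all genes fell. With the fixed replicate block all 17 were lower in both genotypes, against 37% and 42% of all genes. The median log2 differences were -0.78 and -0.86. Cdc6 and Cdt1, which load the replicative helicase, fell by 1.67 ± 0.32 and 1.43 ± 0.22 in wild-type cells (limma adjusted p = 3.30e-04 and 2.50e-05). Tk1, a thymidine kinase, fell by 0.99 ± 0.17 there (limma adjusted p = 1.19e-04), and Mcm7, a helicase subunit, fell by 1.09 ± 0.31 in knockout cells (limma adjusted p = 0.00550).

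Between genotypes none of the 17 targets was called, in untreated cells or after IL-33, although all 17 differences were below 0 in both, with medians of -0.63 and -0.65. Of all 11766 genes tested, 6030 and 6692 differences were below 0. Unadjusted p-values were under 0.05 for 11 and 13 of the 17, against 12.9% and 24.1% of all genes. Pcna, the replication clamp, differed by -0.27 ± 0.14 in untreated cells (limma adjusted p = 0.386) and -0.29 ± 0.14 after IL-33 (limma adjusted p = 0.204). Without wild-type replicate 2, an alternative chosen after the data were seen, 12 were called in untreated cells and 15 after IL-33, against 5.53% and 17.8% of all genes. Without knockout replicate 1, chosen in the same way, none and 6 were called, against 0.034% and 9.92%.

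The deviations of the members were set beside those of the mean of the 17 targets on each array. That mean is no independent readout. It comes from the same arrays and from a list chosen with these data known, and the same 2 cultures lie far out in it. Its correlation with all other genes was not computed. Over 20 arrays r was 0.965 for E2f7, 0.936 for Rbl1, 0.899 for E2f8 and 0.812 for E2f1. It was 0.665 for E2f3, 0.634 for E2f6 and 0.616 for E2f2. It was -0.591 for Rb1, -0.559 for E2f5 and -0.206 for E2f4. Wild-type replicate 2 was 0.90 and 0.82 below its group's target mean without and with IL-33, and knockout replicate 1 was 0.55 and 0.54 above its own.

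**Figure D4:**
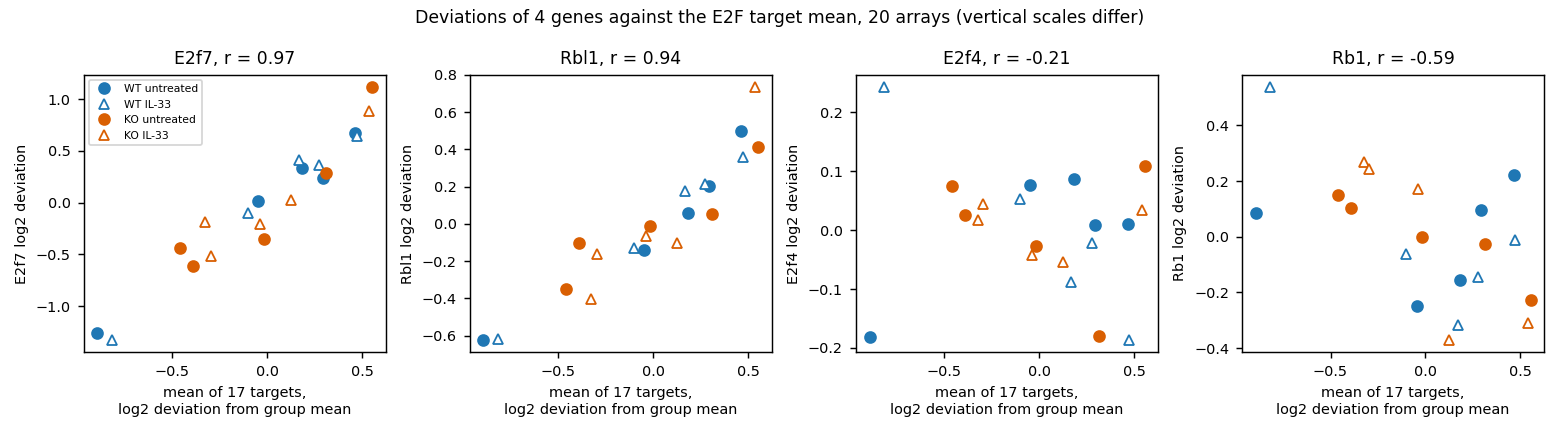
Log2 deviation from the group mean of E2f7, Rbl1, E2f4 and Rb1 (vertical axes, scales differ) against that of the mean of 17 E2F target genes (horizontal axis) on 20 arrays; circles are untreated and triangles IL-33, blue is wild type and orange knockout. E2f7 (r = 0.97) and Rbl1 (r = 0.94) lie along a rising band, E2f4 (r = -0.21) and Rb1 (r = -0.59) do not.

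Partners of the family were counted in the same way. Of 10 DP partners and members of the DREAM and MuvB complexes, which join E2f4 and the pocket proteins, 5 fell in wild-type and 6 in knockout cells, and none rose, where 26.7% and 33.2% of all genes fell. With the fixed replicate block 7 and 8 were lower, against 37% and 42% of all genes. Tfdp2 and Tfdp1, the DP partners, fell by 0.94 ± 0.29 and 0.69 ± 0.11 in wild-type cells (limma adjusted p = 0.0135 and 6.16e-05). Lin54, the DNA-binding MuvB subunit, fell by 0.55 ± 0.10 (limma adjusted p = 1.46e-04), and Rbl2 (p130), the third pocket protein, by 0.40 ± 0.11 (limma adjusted p = 0.00571). None was called between genotypes, and the random block called 1 after IL-33, where it called 4.37% of all genes. Without wild-type replicate 2 there were 2 in untreated cells and 7 after IL-33, and without knockout replicate 1 none and 4, with the shares of all genes given above for the targets. Both left-out cultures were chosen after the data were seen.

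Cyclins and cyclin-dependent kinases that act on the pocket proteins split in direction. Of 8 tested, 2 rose and 2 fell in wild-type cells, and 2 rose and 4 fell in knockout cells, where 42.7% and 52.2% of all genes were called. Ccnd2 and Cdk6 rose by 0.76 ± 0.20 and 0.60 ± 0.09 in wild-type cells (limma adjusted p = 0.00411 and 3.82e-05), while Ccnd3 fell by 0.87 ± 0.18 (limma adjusted p = 4.66e-04). Of 7 CDK inhibitors, Cdkn1a (p21) and Cdkn2b rose and Cdkn1b (p27) and Cdkn2d fell in wild-type cells, and 2 rose and 3 fell in knockout cells. Of all genes, 16.1% rose and 26.7% fell in wild-type and 18.9% and 33.2% in knockout cells. Cdkn1a rose by 1.03 ± 0.15 (limma adjusted p = 1.32e-05) and Cdkn1b fell by 1.09 ± 0.15 (limma adjusted p = 7.62e-06). With the fixed replicate block 2 of the 8 cyclins and kinases were higher and 6 lower in each genotype. Of the 7 inhibitors 2 were higher and 4 lower in each. That fit called 20.8% and 23.5% of all genes higher and 37% and 42% lower in wild-type and knockout cells.

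Of 9 mitosis genes tested, none passed for IL-33 in either genotype, where 42.7% and 52.2% of all genes did in wild-type and knockout cells. All 9 differences were below 0, as were 6633 and 6739 of all 11766 genes. With the fixed replicate block all 9 were lower in both genotypes, against 37% and 42% of all genes. With the random block, at the estimated correlation, 2 of 9 were called in wild-type and 6 of 9 in knockout cells. That fit called 56.9% and 65.4% of all genes. Unadjusted p-values were under 0.05 for none in wild-type and 2 in knockout cells, against 5902 and 6835 of all genes. Mki67, the marker of cycling cells, differed by -0.46 ± 0.37 in wild-type cells (limma adjusted p = 0.338, with the fixed block 0.00332 and with the random block 0.0978). Between genotypes none was called. Without wild-type replicate 2 there were 7 in untreated cells and 9 after IL-33, against 5.53% and 17.8% of all genes, and without knockout replicate 1 none and 9, against 0.034% and 9.92%. Both left-out cultures were chosen after the data were seen.

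Markers of other cells the cultures could hold were measured on the same arrays. The mean log2 value of 8 stem and progenitor markers ran from 7.10 to 7.40 in untreated wild-type and 6.90 to 7.39 in untreated knockout cells, and from 6.50 to 7.05 and 6.21 to 6.70 after IL-33. The mean of 8 neutrophil markers ran from 8.90 to 9.51 and 8.79 to 9.70 in untreated, and from 8.82 to 9.64 and 8.73 to 9.44 in IL-33-treated cells. Of the 8 progenitor markers, 3 fell in wild-type and 4 in knockout cells, where 26.7% and 33.2% of all genes fell. Hoxa9 fell by 0.91 and 1.26 and Sox4 by 1.06 and 1.45. Hoxa9 was also the 1 progenitor marker called between genotypes, at -0.58 in knockout against wild-type cells after IL-33 (limma adjusted p = 0.0447). That comparison called 2.21% of all genes. Of the 8 neutrophil markers 1 rose, Lcn2, by 0.96 and 0.68, and none fell, where 16.1% and 18.9% of all genes rose. Lcn2 ran against most of its list. Differences were below 0 for 6 of the 8 in wild-type and 7 in knockout cells, with medians of -0.13 and -0.27. With the fixed replicate block 3 and 6 of the 8 were lower, against 37% and 42% of all genes, and 1 was higher in each genotype.

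Of 7 monocyte, macrophage and dendritic markers tested, 3 rose in each genotype, and 1 fell in wild-type and 2 in knockout cells. Of all genes, 16.1% rose and 26.7% fell in wild-type and 18.9% and 33.2% in knockout cells. Cd14 rose by 2.13 and 2.41, Adgre1 by 0.70 and 0.66 and Csf1r by 0.62 and 0.54 in wild-type and knockout cells. The list as a whole did not move in 1 direction. Differences were below 0 for 3 of the 7 in wild-type and 4 in knockout cells, with medians of 0.048 and -0.096. With the fixed replicate block 3 were higher and 3 lower in each genotype. That fit called 20.8% and 23.5% of all genes higher and 37% and 42% lower. The mean of the 7 ran from 8.12 to 8.64 and 8.17 to 8.65 in untreated, and from 8.55 to 8.94 and 8.50 to 8.96 in IL-33-treated cells. Of 5 mast cell and basophil markers tested, 1 rose in each genotype, and 1 fell in wild-type and 2 in knockout cells.

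Over the 20 arrays the deviations of the progenitor mean correlated with those of E2f6 at -0.658, of E2f2 at -0.535 and of Rb1 at 0.440. For the other members r ran from -0.260 for E2f4 to 0.284 for E2f5, with E2f7 at -0.181, E2f8 at 0.0512 and Rbl1 at -0.0066. The part of other cells in the results was not tested.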

How the data were processed

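Per the labels' protocols, an Affymetrix 3' IVT kit turned total RNA into biotin-labelled cRNA. The deposited table held log2 values of 20630 probe sets on 20 arrays, a scale read from their range (1.27 to 13.99). The authors' background correction, summarization and normalization were not given in the sources used here, nor scan dates or slides. Of these probe sets 17826 had 1 gene symbol in the platform annotation, standing for 17771 genes, and the probe set with the highest mean was kept. A gene was tested when above its array's 40th percentile on at least 5 arrays, which left 11766.

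All arrays entered limma 3.58.1 (R 4.3.3; lmFit, eBayes) with 1 mean per group and 16 residual degrees of freedom. P-values were adjusted by Benjamini-Hochberg over all genes tested and called under 0.05. The fit was tested on simulated data with independent noise on each array and changes added to the wild-type IL-33 group only. Shared deviations of same-numbered arrays were not simulated, so that test cannot speak for them or for the knockout arrays. Same-numbered arrays of a genotype deviated together (r 0.262 to 0.783, each of 10 best with its own number), so the number was also fitted as a block. It was a fixed term for IL-33 and the interaction, and a random term (consensus correlation 0.464) in every comparison. No label ties an array to a batch or names its mouse. The pairing by number is therefore inferred from the sample names and the correlations above. Precision is limited by the number of arrays.

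The members and lists were chosen with earlier results of these data known. Named were all 10 members, up to 4 called genes with the largest change of each other list per comparison, or its 2 brightest where none was called (the text gives a part of these), and the 3 genes most like each member, of which some members show the first only. Promoter sequences are RefSeq's. Alternatives were filters, normalization, weights, probe set means, blocks and left-out arrays.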

Additional observations from a re-analysis of the deposited data

Results flagged for a closer look

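In 60 sets of 5 values (10 genes in 4 groups, and their within-pair changes in 2 genotypes), 5 sets had 1 value far from the other 4 by Dixon's test, which marks about 1 in 20 by chance. E2f3 stood at 7.03 in wild-type replicate 1 after IL-33, above the others, and at 6.60 in knockout replicate 2 after IL-33, below the others. E2f4 stood at 4.93 in untreated wild-type replicate 2, below the others, and its change with IL-33 in that pair was 0.63, above the others. The change of Rbl1 in knockout replicate 1 was -0.55, smaller in size than in the other 4 pairs.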

How the results depend on the processing

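Over all alternatives, 1284 of 1410 values of member differences kept their direction and their side of the threshold, 33 lost the call, 50 gained one and 43 changed sign, none of the last called in either fit. The sign changes fell on 6 differences near 0. With array weights, the genotype difference of E2f4 in untreated cells was -0.016, that of E2f3 after IL-33 was -0.0075, and the interaction of E2f6 was -0.022. With arrays left out, the ranges were -0.038 to 0.053 for E2f4 and -0.089 to 0.12 for E2f5 in untreated cells, -0.017 to 0.084 for E2f3 after IL-33, and for the interaction -0.23 to 0.0017 for E2f1, -0.094 to 0.12 for E2f6 and -0.26 to 0.39 for E2f7.

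In the genotype comparison after IL-33, where 1 member and 260 genes were called, the counts were 2 and 444 under a dim-gene filter set at the 60th percentile, 0 and 24 with only the groups compared, 6 and 2321 with array weights, and 2 and 514 with a random replicate block, while no filter gave 152 genes. In untreated cells array weights gave 5 members and 1467 genes instead of 0 and 3. In the interaction, array weights called 2 genes and the random block 26. The fixed replicate block gave 8 members for IL-33 in knockout cells, and beyond the calls named in the results it changed no other call of a member. With 1 array or 1 pair left out, members called ran from 3 to 5 (genes from 4244 to 5001) for IL-33 in wild-type cells and from 5 to 7 (5364 to 6142) in knockout cells. They ran from 0 to 4 (3 to 651) between untreated genotypes, from 0 to 7 (24 to 2094) after IL-33, and stayed at 0 (0 to 3) for the interaction. The highest genotype counts came without wild-type replicate 2. The causes were not tested. Quantile normalization, a trended robust prior and probe set means moved no count of members beyond 1.5 times. E2f4, E2f5 and Rb1 had no promoter window here.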
